A study of Arabidopsis thaliana with 18 samples.

Results

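EXPA8, GASA6, TBL36 and AT1G71695 are 4 Arabidopsis thaliana genes linked to the growth and remodelling of the plant cell wall. They were selected on measured signals of this series. In plants given only a surfactant each was higher at 28 h than at 4 h. That difference is taken here as their definition and not as a result. The loci are AT2G40610 (EXPA8), AT1G74670 (GASA6), AT3G54260 (TBL36) and AT1G71695, each read by 1 of the 22810 probe sets of the ATH1 GeneChip array. The platform annotation names 3 of these 4 probe sets, and the name GASA6 comes from the definition of the gene set.

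The study used 18 arrays of the natural accession Kin-0. One set of plants was given salicylic acid (SA), the defence hormone, at 0.30 mM with the wetting agent silwet at 0.02%, and the other got the 0.02% silwet without SA, so all plants carried the wetting agent. RNA was profiled at 4, 28 and 52 h in both sets, with 3 biological replicates in each of the 6 groups, called SA plants and silwet plants here. The labels name no genotype other than the accession, no plant age and no tissue. Untreated plants were not analysed here, so the level of the 4 genes before treatment is not known from these arrays.

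Growing plant cells enlarge when their wall yields to internal pressure while new wall material is laid down. Expansins such as EXPA8 loosen the wall by weakening contacts between its polymers without cutting them. GASA6 encodes a small cysteine-rich secreted peptide of the gibberellin-stimulated GASA family, whose members act in growth and hormone responses. TBL36 belongs to the trichome birefringence-like family, whose characterised members add acetyl groups to wall polysaccharides. AT1G71695 encodes a class III peroxidase, one of a large family of secreted enzymes that can stiffen the wall by cross-linking its components or loosen it through reactive oxygen species.

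The deposited values were linear MAS5 signals with nearly the same trimmed mean on every array. Array medians were 26.7 to 35.6. A value is called dim below when it was under the 40th percentile of its own array, a level of 16.0 to 20.7. Of the probe sets, 15212 exceeded that level on at least 3 arrays and were tested, all 4 genes among them. Rubisco activase (RCA), a leaf gene, had a signal of 1343 to 4055 over the 18 arrays, while the root hair expansins EXPA7 and EXPA18 were dim on all 18. Only 5 of 37 tissue markers could be matched to a probe set. The others matched were the stomatal lineage genes FMA, above the dim level on all 18 arrays, and SPCH, above it on none. Control probe sets report RNA quality as a 3' over 5' signal ratio, and SA plants at 4 h, replicate 2, had the highest (mean log2 ratio 2.65, against 1.18 to 2.26 on the other arrays). A bulk sample does not tell fewer cells of a type from less RNA per cell.

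EXPA8 had signals of 91.4, 87.8 and 59.5 in SA plants at 4 h, of 323, 548 and 345 at 28 h, and of 305, 434 and 400.1 at 52 h. In silwet plants it had 79.4, 70.5 and 115 at 4 h, 190.5, 292 and 395 at 28 h, and 276, 346 and 444 at 52 h. Every array of a later time lay above every array of 4 h, in both treatments. In SA plants the same held for 13.2% of all probe sets tested at 28 h and 14.5% at 52 h. In silwet plants it held for 4.42% and 11.2%, and the silwet step to 28 h is the choice itself. These shares, counted within a treatment, also stand beside the separations of the other genes below. The order of the group means was SA 28 h (405 ± 124, SD, n = 3), SA 52 h (379 ± 66.9), silwet 52 h (355 ± 84.6), silwet 28 h (293 ± 102), silwet 4 h (88.3 ± 23.5) and SA 4 h (79.6 ± 17.5). Neighbours within the 4 later groups overlapped, as did the 2 groups of 4 h.

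GASA6 moved over the widest range of the 4. In SA plants it had 26.1, 54.2 and 13.5 at 4 h, 803, 673 and 334 at 28 h, and 553, 629 and 406 at 52 h. In silwet plants it had 48.0, 32.0 and 32.0 at 4 h, 373.7, 273.97 and 459.9 at 28 h, and 292, 469 and 501 at 52 h. The lowest later array, at 273.97, was well above the highest array of 4 h, at 54.2, and 1 of the 3 SA arrays of 4 h (replicate 3) was dim. By group mean the order was SA 28 h (603 ± 242, SD, n = 3), SA 52 h (529 ± 113), silwet 52 h (421 ± 112), silwet 28 h (369.2 ± 93.0), silwet 4 h (37.3 ± 9.23) and SA 4 h (31.3 ± 20.9). The later groups overlapped with their neighbours, and the 2 groups of 4 h overlapped as well.

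TBL36 was the least separated between times. It had 23.8, 42.2 and 23.6 in SA plants at 4 h, 63.9, 55.6 and 50.2 at 28 h, and 48.7, 44.4 and 43.3 at 52 h. In silwet plants the signals were 26.7, 17.9 and 14.4 at 4 h, 51.7, 48.8 and 44.7 at 28 h, and 51.7, 37.0 and 37.9 at 52 h. Replicate 2 of the SA plants at 4 h, at 42.2, lay above 2 of the 3 silwet arrays of 52 h, and 2 of the 3 silwet arrays of 4 h were dim. Group means ran from 56.6 ± 6.92 (SD, n = 3) in SA plants at 28 h over 48.4 ± 3.52 (silwet 28 h), 45.4 ± 2.84 (SA 52 h) and 42.2 ± 8.24 (silwet 52 h) to 29.9 ± 10.7 (SA 4 h) and 19.7 ± 6.34 (silwet 4 h).

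AT1G71695 had the smallest SE of the 4 genes in the fit. It had 213, 244 and 267 in SA plants at 4 h, 361, 373.8 and 479.7 at 28 h, and 373, 461 and 405 at 52 h. In silwet plants it had 207, 246 and 228 at 4 h, 373, 427 and 441 at 28 h, and 443, 439 and 515 at 52 h. Here too no later array was as low as the highest array of 4 h (361 against 267). The group means of the later times ran from 405 ± 65.0 (SA 28 h, SD, n = 3) to 466 ± 42.6 (silwet 52 h), and those of 4 h were 241 ± 27.1 in SA plants and 227 ± 19.6 in silwet plants.

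**Figure D1:**
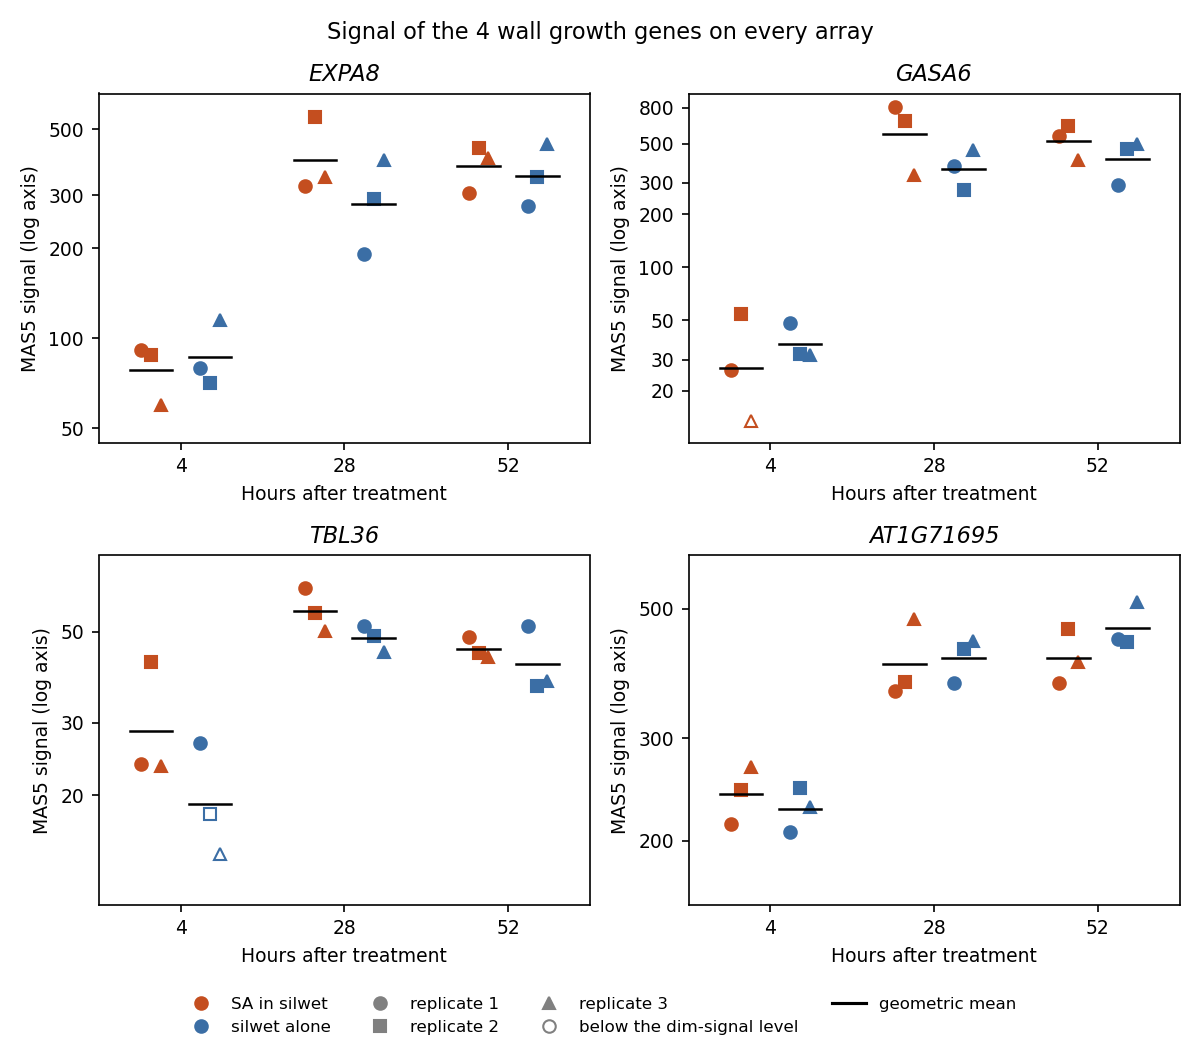
MAS5 signal (log axis) of EXPA8, GASA6, TBL36 and AT1G71695 on each of the 18 arrays, by hours after treatment, with SA plants (orange) left of silwet plants (blue), 1 symbol per replicate, black bars for the geometric mean of 3 arrays, and open symbols for dim values. The step lies between 4 and 28 h in both treatments, and TBL36 is the gene whose SA arrays of 4 h come closest to the later ones.

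The comparison taken here to have chosen the 4 genes used silwet plants only. The SA arrays may have entered the choice too. The SA arrays give the same step, from 4 h to 28 h, in the other treatment. The genes were picked out with all results of the series in view, so tests on SA plants are not independent support. All 4 genes rose. GASA6 was 21.1-fold higher at 28 h than at 4 h (log2 change 4.40, SE 0.43) and EXPA8 was 5.04-fold higher (2.33, SE 0.31), with limma adjusted p = 3.3e-05 and 0.000309. TBL36 was 1.96-fold higher (log2 change 0.97, SE 0.26, limma adjusted p = 0.0250). AT1G71695 was 1.67-fold higher (0.74, SE 0.17, limma adjusted p = 0.0106). The fit takes its spread from all 18 arrays, the silwet arrays of the choice among them. With only the 6 arrays compared, neither TBL36 nor AT1G71695 passed (limma adjusted p = 0.113 and 0.118). The 3 arrays of 28 h lay above the 3 of 4 h for each gene, which held for 13.2% of all probe sets tested. Each gene was also higher at 28 h in 3 of 3 same-numbered pairs of arrays, by 3.63 to 4.94 on the log2 scale for GASA6, 1.82 to 2.64 for EXPA8, 0.61 to 0.85 for AT1G71695 and 0.40 to 1.43 for TBL36.

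These 4 calls stand among many. Limma called 1769 of 15212 probe sets (11.6%), 820 (5.39%) higher and 949 (6.24%) lower in SA plants at 28 h than at 4 h, at an adjusted p under 0.05. With median centring 36.05% of the calls were higher, against 46.35% without it. By size of log2 change GASA6 was 3rd and EXPA8 57th from the top, while TBL36 was 1116th and AT1G71695 1922nd. The call of GASA6 and that of EXPA8 held without any 1 of the 6 arrays compared. TBL36 missed the threshold without SA 4 h replicate 1 or 3 or without SA 28 h replicate 1 or 2 (adjusted p between 0.0767 and 0.109), and AT1G71695 without SA 28 h replicate 3 (adjusted p = 0.0561), in fits that also have fewer arrays.

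The SA arrays are not wholly separate from the silwet arrays that chose the genes. SA and silwet arrays of the same replicate number deviated together from their group means, with correlations across probe sets of 0.61 to 0.82 at 28 h and 0.18 to 0.71 at 4 h. The SA arrays thus share part of their variation with the silwet arrays. The genes were also picked out with all results of the series in view.

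RNA quality differed between the SA arrays of 4 h, and replicate 2, with the highest 3' over 5' ratio, had the highest signal of that group for GASA6 and TBL36. With the ratio as a covariate, the log2 change from 4 h to 28 h in SA plants was 4.78 for GASA6, 2.24 for EXPA8, 1.19 for TBL36 and 0.68 for AT1G71695, all 4 called by limma (adjusted p between 3.43e-06 and 0.0149). Without that array the changes were 4.91, 2.42, 1.25 and 0.75, and all 4 were again called (limma adjusted p up to 0.0311).

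**Figure D2:**
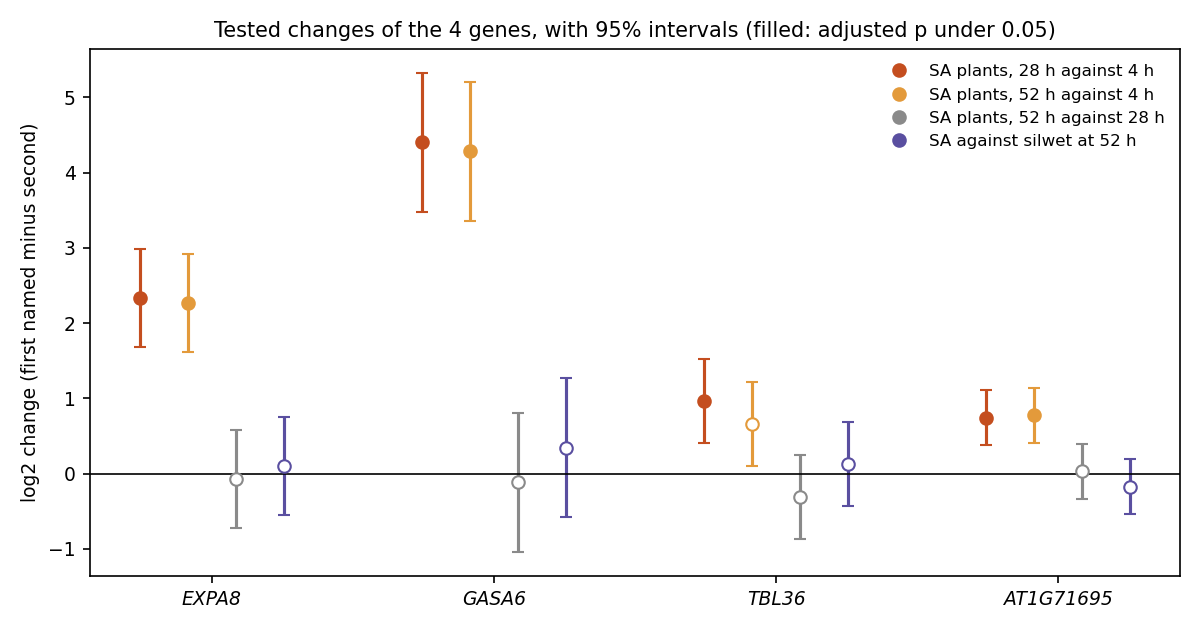
Log2 change of each gene in the 4 tested comparisons, with 95% intervals from the limma fit, filled where the adjusted p is under 0.05. GASA6 and EXPA8 are filled at 28 h and at 52 h against 4 h, TBL36 only at 28 h, and every interval of the 52 h against 28 h and of the SA against silwet comparison spans 0.

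The higher level was still present at 52 h. In SA plants at 52 h against 4 h GASA6 was 19.5-fold higher (log2 change 4.28, SE 0.43), EXPA8 4.80-fold (2.26, SE 0.31) and AT1G71695 1.71-fold (0.77, SE 0.17), with limma adjusted p = 1.98e-05, 0.000189 and 0.00591. TBL36 had a log2 change of 0.66 (SE 0.26) and did not pass (limma adjusted p = 0.106). It passed with the replicate number as a block (adjusted p = 0.0409) and without SA 4 h replicate 2 (log2 change 0.94, adjusted p = 0.0286). AT1G71695 did not pass with only the 6 arrays compared (limma adjusted p = 0.0926). All 3 arrays of 52 h lay above all 3 of 4 h for each of the 4 genes and for 14.5% of all probe sets. Limma called 2437 of 15212 probe sets (16.0%) here, 1120 (7.36%) higher and 1317 (8.66%) lower, and with the block 2520 (16.6%) higher and 2150 (14.1%) lower.

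Between 28 h and 52 h no change was detected. In SA plants the log2 change was -0.07 for EXPA8 (95% interval -0.72 to 0.58), -0.12 for GASA6 (-1.04 to 0.80), -0.31 for TBL36 (-0.87 to 0.25) and 0.03 for AT1G71695 (-0.33 to 0.40). The 3 arrays of TBL36 at 52 h all lay below the 3 of 28 h, as for 2.71% of all probe sets, and the other genes overlapped. Limma called 0 of 15212 here. At an unadjusted p under 0.05 there were 229, and with the replicate block 0 were called and 642 stood under that unadjusted level. The interval of GASA6 is the widest of the 4.

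The difference between SA and silwet plants was tested only at 52 h, since the silwet arrays of 4 h and 28 h chose the genes. That test is not independent of the choice either, since all results of the series were in view. The log2 difference at 52 h was 0.11 for EXPA8 (95% interval -0.55 to 0.76), 0.35 for GASA6 (-0.57 to 1.27), 0.12 for TBL36 (-0.44 to 0.68) and -0.17 for AT1G71695 (-0.54 to 0.19). None passed, the arrays of the 2 treatments overlapped for all 4, and limma called 0 of 15212 (0 with the replicate block too). Unadjusted p-values under 0.05 numbered 146, and 642 with the block. Those intervals do not show that the treatments were equal.

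At 4 h and 28 h the values are a description only. At 28 h GASA6 averaged 603 ± 242 in SA plants and 369.2 ± 93.0 in silwet plants (SD, n = 3 each), and EXPA8 averaged 405 ± 124 in SA plants and 293 ± 102 in silwet plants. For both genes SA was the higher member of the pair in replicates 1 and 2 (log2 difference 1.1 and 1.30 for GASA6, 0.76 and 0.91 for EXPA8) and the lower in replicate 3 (-0.46 and -0.20). At 4 h the log2 difference between SA and silwet plants was -0.46 for GASA6, -0.14 for EXPA8, 0.59 for TBL36 and 0.09 for AT1G71695, and the arrays of the treatments overlapped for each.

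The values taken to have chosen the genes were those of silwet plants at 28 h against 4 h. The log2 changes were 3.30 for GASA6, 1.70 for EXPA8, 1.34 for TBL36 and 0.87 for AT1G71695, and at 52 h against 4 h they were 3.48, 2.01, 1.13 and 1.04. The log2 change from 4 h to 28 h in SA plants minus that in silwet plants was 1.1 for GASA6, 0.64 for EXPA8, -0.37 for TBL36 and -0.12 for AT1G71695, and this difference was not tested because it contains the choice. The 3 silwet arrays of the later time lay above all 3 of 4 h for each of the 4 genes, as for 4.42% of all probe sets at 28 h and 11.2% at 52 h. In the silwet comparison of 28 h with 4 h, 5 probe sets (0.0329%) were called higher and 87 (0.572%) lower, so the 4 genes are all of the called ones but 1.

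The remaining called probe set carries no gene name here. Its mean in silwet plants was 2996 ± 482 at 28 h and 1167 ± 492 at 4 h (SD, n = 3 each), a log2 change of 1.43. For SA plants the means were 2349 ± 233 at 28 h and 1494 ± 395 at 4 h, and the log2 change of 0.69 did not pass (limma adjusted p = 0.0891). Just inside the threshold of the silwet comparison stood AT1G71695 (adjusted p = 0.0322 in the limma fit) and TBL36 (0.0294). The nearest named genes outside it were AT5G08400 and AT4G28310 (0.0839 each) and AT3G17350 (0.118), with log2 changes of 0.89, 0.98 and 0.88. These 3 genes and AT1G71695 had log2 changes of like size.

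**Figure D3:**
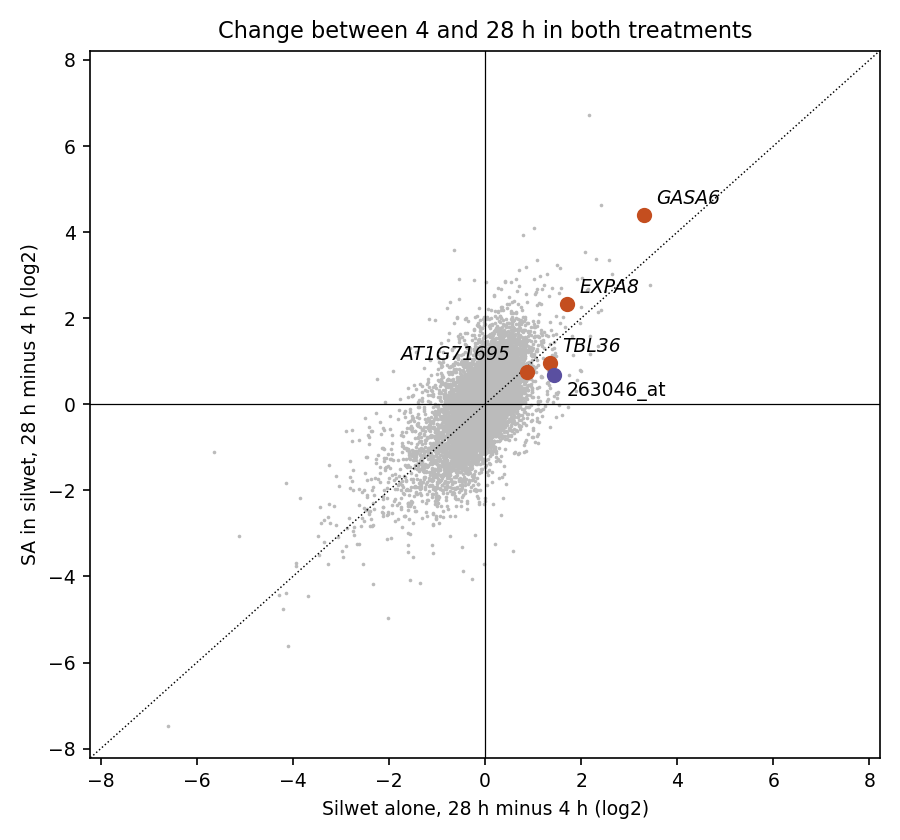
Log2 change from 4 h to 28 h in silwet plants (x axis) and in SA plants (y axis) for the 15212 probe sets tested, with the 4 genes in orange, the unnamed probe set in purple and a dotted line where both changes are equal. GASA6 and EXPA8 lie above the line, TBL36, AT1G71695 and the unnamed probe set below it.

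The 4 genes were correlated more closely over all arrays than within groups. Over the 18 arrays the Pearson correlation of log2 signals between pairs of the 4 genes ran from 0.72 (TBL36 with AT1G71695) to 0.95 (EXPA8 with GASA6), over arrays that include the step that chose them. For deviations from the group means it ran from -0.35 (GASA6 with AT1G71695) to 0.53 (GASA6 with TBL36), with 0.37 for EXPA8 with GASA6. These are descriptions over arrays that share replicate numbers and signal scaling.

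The named genes most like each of the 4 were found by the same correlation over the 18 arrays, among 8302 tested probe sets with 1 gene. For EXPA8 these were AT4G28780 (r = 0.94), AT1G10640 (0.93), AT4G18970 (0.92), AT2G20230 (0.91) and the serine carboxypeptidase-like gene scpl26 (0.90). For GASA6 they were AT1G49975 (0.93), scpl26 (0.92), AT3G06770 (0.92), DRT100 (0.91) and AT4G13170 (0.91). AT1G10640 had a mean signal of 108 in SA plants at 28 h and 12.9 at 4 h, and in silwet plants of 86.1 at 28 h and 29.9 at 4 h. DRT100 had 489 at 28 h and 132 at 4 h in SA plants, and 373 and 227 in silwet plants.

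The nearest neighbours of the other pair were less close. For TBL36 they were AT4G38020 (0.88), AT5G43790 (0.85), AT5G54530 (0.83), the histone H2B gene HTB1 (0.83) and AT4G13170 (0.82). For AT1G71695 they were AT1G22330 (0.90), AT1G10780 (0.89), AT1G27120 (0.88), AT1G27210 (0.87) and AT2G20230 (0.87). So scpl26 stood near both EXPA8 and GASA6, AT2G20230 near EXPA8 and AT1G71695, and AT4G13170 near GASA6 and TBL36.

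**Figure D4:**
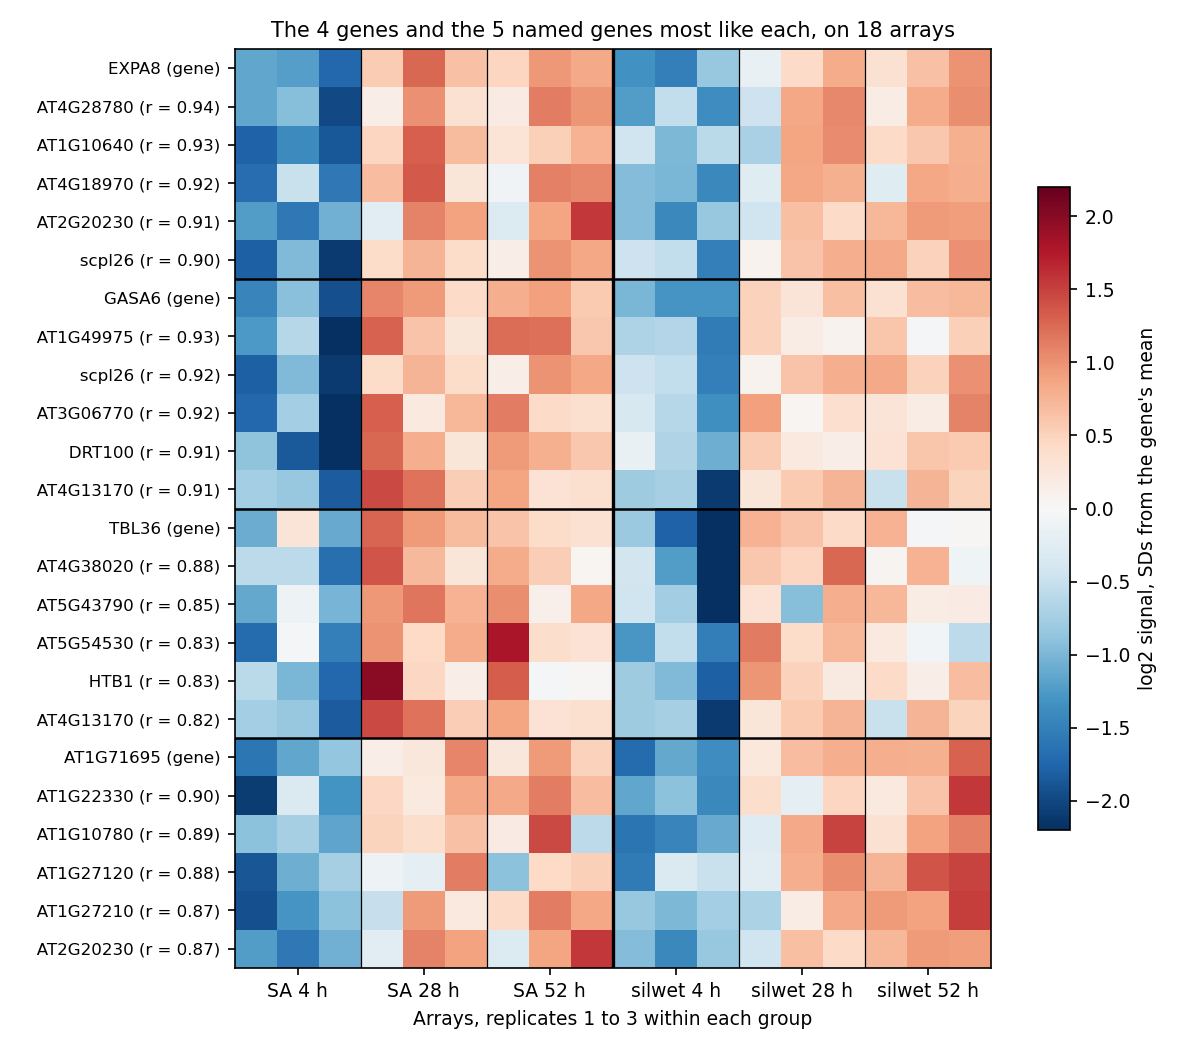
Log2 signal of each gene and of the 5 named genes with the highest Pearson correlation to it, in SDs from the gene's own mean, on 18 arrays ordered by treatment and time (columns, SA left of silwet). Most arrays of 4 h are low, and the 4 h to 28 h step is visible in both treatments.

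The rest of each family shows how many relatives changed in SA plants. Of 36 expansins, 18 had a named probe set and 9 besides EXPA8 could be tested. All 9 had a positive log2 change from 4 h to 28 h, with a median of 0.82, against a median of 0.08 and a positive share of 56.0% over all probe sets tested. Limma called 2 of the 9 higher and 0 lower, where 5.39% of all probe sets were called higher. The 2 were the beta-expansin EXPB3, with 105 ± 53.0 at 28 h and 43.6 ± 9.96 at 4 h (SD, n = 3 each, log2 change 1.18, adjusted p = 0.0393), and EXPA15, with 96.2 ± 7.89 and 54.7 ± 6.38 (0.82, adjusted p = 0.0348). The call of EXPA15 was lost without any 1 of the 6 arrays and that of EXPB3 without 4 of them, SA 4 h replicate 2 among those. So the count was 0 without that array and 0 or 1 without any other. Without SA 4 h replicate 2 limma called 490 of 15212 probe sets higher. At 52 h against 4 h the count was 5 of 9 higher and 0 lower, against 7.36% higher over all probe sets, with EXPA4 (1.05), EXPB1 (1.33) and EXLA2 besides those 2. EXLA2 was above the dim level on only 5 of 18 arrays, and no fold is given. The expansin count at 52 h was 1 without SA 4 h replicate 3 or SA 52 h replicate 2, 2 without SA 52 h replicate 3 and 3 without SA 4 h replicate 2. In those fits, in that order, limma called 656, 537, 870 and 706 of 15212 probe sets higher.

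Of 73 class III peroxidases, 55 had a named probe set, but 35 of those were not tested because their signals were too dim. Among the 19 tested besides AT1G71695, 2 were called higher and 0 lower at 28 h, against 5.39% higher and 6.24% lower over all probe sets. The median log2 change of the 19 was 0.11, and 15 had a positive change, against 56.0% of all probe sets. AT2G37130 averaged 294 ± 75.3 at 28 h and 76.4 ± 50.8 at 4 h (SD, n = 3 each), a log2 change of 2.11 (limma adjusted p = 0.00985) that held without any 1 array. AT5G40150 had 51.7 ± 23.2 and 19.2 ± 1.02, a log2 change of 1.33 (limma adjusted p = 0.0130), and missed the threshold without SA 28 h replicate 2 (adjusted p = 0.0834). AT1G71695 had a smaller log2 change (0.74) than either. At 52 h PRXR1 also rose (log2 change 1.33, limma adjusted p = 0.0185), which made 3 of 19 higher and 0 lower, where all probe sets gave 7.36% and 8.66%. With the replicate block 4 were higher and 2 lower, where all probe sets gave 16.6% and 14.1%. Without the block, leaving out SA 4 h replicate 2 or SA 52 h replicate 2 left 1 of 19 peroxidases called higher at 52 h. Limma called 706 and 537 of 15212 probe sets higher in those fits. The call at 52 h was lost without 4 of the 6 arrays for AT2G37130 and without 3 for PRXR1. That of AT5G40150 held without any 1 array.

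Calls in the TBL family went both ways over 28 h and 52 h. Of 49 names, 23 had a named probe set and 13 besides TBL36 could be tested, with a median log2 change of 0.37 from 4 h to 28 h in SA plants. Of these 13 genes, 10 had a positive change, against 56.0% of all probe sets. None was called higher (5.39% of all probe sets were), and TBL37, the 1 gene of 13 called lower (6.24% of all), fell to 54.2 ± 9.09 at 28 h, against 156 ± 64.1 at 4 h (SD, n = 3 each, log2 change -1.43, limma adjusted p = 0.0170). That call was lost without SA 4 h replicate 2 or 3 or SA 28 h replicate 2 (adjusted p up to 0.0870), and the log2 change in silwet plants was -2.03. At 52 h TBL25 (log2 change 1.01) and TBL45 (1.06) were higher and TBL37 (-1.75) lower (limma adjusted p between 0.00372 and 0.0225), which is 2 and 1 of 13 beside 7.36% and 8.66% of all probe sets. With the replicate block the family had 3 higher and 2 lower of 13, beside 16.6% and 14.1% of all, so the share lower was near that of all probe sets. Without SA 52 h replicate 2 no TBL gene was called higher at 52 h (537 of 15212 probe sets were), and without SA 4 h replicate 3 TBL45 was not.

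GASA6 has few relatives that could be tested. Of 15 family names, 6 loci could be matched to a probe set and 3 passed the filter. None of these 3 was called at 28 h or 52 h without the replicate block. Over all probe sets 5.39% were called higher and 6.24% lower at 28 h, and 7.36% and 8.66% at 52 h. So few genes do not show whether their share of calls differs from that. AT1G22690 averaged 189 ± 19.4 at 28 h and 317 ± 53.6 at 4 h in SA plants (SD, n = 3 each), a log2 change of -0.74 (limma adjusted p = 0.0572), AT5G59845 had -0.18 and AT2G14900 0.11. At 52 h against 4 h the log2 change of AT1G22690 was -0.68 (limma adjusted p = 0.0644). With the replicate block this gene was called lower (limma adjusted p = 0.0133), as were 14.1% of all probe sets. The probe sets of the other names are not known here.

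The other lists of wall and growth genes held few tested genes. Of 6 tested xyloglucan endotransglucosylase/hydrolases (XTH), enzymes that cut and rejoin wall polymers, 4 had a positive log2 change at 28 h in SA plants. None was called then, where 5.39% of all probe sets were called higher and 6.24% lower. At 52 h XTH16 was higher (log2 change 0.97, limma adjusted p = 0.0344) and XTH18 lower (adjusted p = 0.0394), each lost without 5 of the 6 arrays. That is 1 higher and 1 lower of 6, beside 7.36% and 8.66% of all probe sets. Lists this short do not show whether their share of calls differs from that of all probe sets. XTH18 was above the dim level on 7 of 18 arrays. The gibberellin receptors GID1A (log2 change 0.41), GID1B (-0.38) and GID1C (0.20), the only growth regulators of the list with a named probe set, did not pass at 28 h. For the 10 cellulose synthases the annotation gave no probe set of 1 gene.

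**Figure D5:**
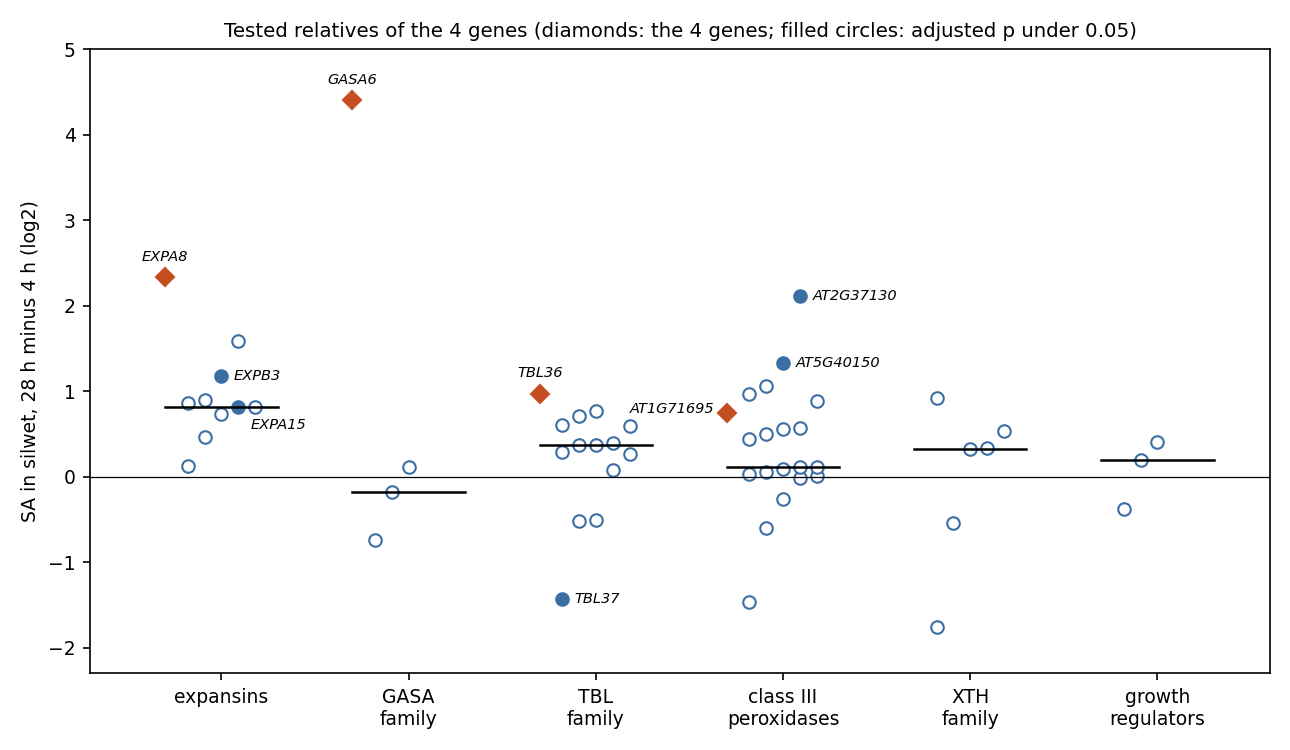
Log2 change from 4 h to 28 h in SA plants for the tested relatives of the 4 genes (blue circles, filled where limma's adjusted p is under 0.05, black bars for family medians) and for the 4 genes (orange diamonds). EXPA8, GASA6 and TBL36 each lie above every tested relative of their family in this comparison. AT2G37130 and AT5G40150, the 2 peroxidases called, are among those above AT1G71695.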

How the data were processed

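Intensity values were deposited by the authors on a linear scale in a single table, and the submitters' processing notes name MAS5, of unstated version. Each array's 2% trimmed mean lay at 100.009 to 100.011, no arrays were identical (0 pairs), and 0 columns were left unmapped. MAS5 leaves dim signals noisy on a log scale, and the table holds no detection calls.

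The log2 of each deposited intensity was analysed, with no offset added. The 64 control probe sets and those dim on all but at most 2 arrays were left out, and the 15212 others were fitted with limma 3.58.1 (R 4.3.3) on all 18 arrays with 6 group means (lmFit, eBayes with an intensity trend, two-sided, Benjamini-Hochberg over all probe sets tested). Intervals are 95% and rest on 3 arrays a group. Of 22810 probe sets the annotation names 13513 with 1 gene. A family gene with several probe sets is given by the brightest. Coordinates are left out, since the sources name no genome build.

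The genes, lists and tests were chosen with earlier results of these data known. Text names the 4 genes, tested relatives, probe sets at the choosing threshold and the 5 most similar genes each. Same-numbered arrays deviated together above 0.1 in all 3 pairs for SA plants at 52 h against 4 h (0.15 to 0.51) and 28 h (0.46 to 0.76) and for SA against silwet at 52 h (0.20 to 0.36), but not at 28 h against 4 h (0.088 to 0.64). What numbers share is not stated in the labels. The fits were tested on simulated data. Alternatives were quantile normalization, median centring, an offset of 5.53 (20th percentile), no filter, a 60th percentile filter, no intensity trend, only the arrays compared, the replicate block, the 3' over 5' ratio of 3 control genes as covariate, and leaving out each array. Figures used matplotlib 3.10.9 in Python 3.11.15.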

Additional observations from a re-analysis of the deposited data

How the results depend on the processing

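In SA plants at 28 h and at 52 h against 4 h, EXPA8 and GASA6 kept their call under all 9 other settings and without any 1 array. The calls of TBL36 and AT1G71695 depended on the setting. At 28 h TBL36 missed the threshold with quantile normalization (log2 change 0.88, adjusted p = 0.0711), with median centring (0.90, 0.0778) and with only the 6 arrays compared (0.97, 0.113), where AT1G71695 also missed it (0.74, 0.118). At 52 h TBL36 passed with the replicate block (0.66, limma adjusted p = 0.0409) and the 3' over 5' ratio (0.90, 0.0112). AT1G71695 missed the threshold there with only 6 arrays (0.77, 0.0926). Such a fit has fewer arrays to estimate the spread, and it leaves out the silwet arrays that chose the genes, which the main fit includes. At 28 h its SE was 0.24 for AT1G71695, 0.31 for TBL36, 0.53 for GASA6 and 0.31 for EXPA8. In the main fit the SE was 0.17, 0.26, 0.43 and 0.31.

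The count of 1769 probe sets at 28 h became 854 with only the 6 arrays and 3756 with the replicate block, and the 2437 at 52 h became 1237 and 4670. The block changed no call of the 4 genes at 28 h. The deviations of same-numbered arrays there correlated at 0.63, 0.088 and 0.64 in replicates 1, 2 and 3. With the block limma called 2008 of 15212 probe sets higher and 1748 lower at 28 h. The relatives called higher with it were 5 of 9 expansins, 4 of 19 peroxidases, 1 of 13 TBL and 1 of 6 XTH genes. Those called lower were 1 of 19 peroxidases, 1 of 13 TBL and 1 of 3 GASA genes. With the ratio as covariate (chosen after seeing the data for relatives) limma called 1232 of 15212 probe sets higher and 1225 lower. Of the same families in the same order, 2, 4, 2 and 1 genes were called higher, and 1, 1 and 0 lower. Median centring lowered the share of higher calls at 28 h to 36.05%, against 46.35% without it. The cause was not tested.

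Leaving out 1 array gave counts of 888 to 1906 at 28 h, 1392 to 2470 at 52 h, 0 for 52 h against 28 h, and 0 to 1 for SA against silwet at 52 h (1 without silwet replicate 3). Log2 changes at 28 h ran from 2.09 to 2.48 (EXPA8), 3.91 to 4.91 (GASA6), 0.83 to 1.25 (TBL36) and 0.61 to 0.82 (AT1G71695). At 52 h they ran from 2.07 to 2.41, 3.79 to 4.79, 0.52 to 0.94 and 0.69 to 0.85. From 28 h to 52 h in SA plants they ran from -0.21 to 0.17, -0.50 to 0.14, -0.39 to -0.22 and -0.048 to 0.16. For SA against silwet at 52 h they ran from -0.063 to 0.28, 0.10 to 0.53, 0.04 to 0.28 and -0.26 to -0.10. None of the 4 genes was called in the last 2 comparisons under any setting run, and changes of sign there are of values near 0.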
